A study of Mus musculus with 6 samples.

Results

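Glo1, 1700097N02Rik, Dnah8 and Btbd9 are neighbours on mouse chromosome 17, and they made up 4 of the 32285 genes in the count tables. They lie in a stretch known to vary in copy number between inbred strains and were chosen by their ratio of H2-O KO to H2-O WT counts, so that this ratio is a description here, with no test. RNA was counted and DNA was not, so the number of gene copies in these mice was not measured. The libraries came from splenic CD4 T cells, sorted as CD3+ CD4+ B220- NK1.1-, with 3 mice each for H2-O KO and for H2-O WT and 1 library of 10x Genomics 5' scRNA-seq per mouse. By the labels both groups were C57BL6/J, 8 weeks old and naive, that is, unimmunized, and differed in the H2-O genotype. The study's methods give a greater age. H2-O, made of H2-Oa and H2-Ob, has been described as an inhibitor of H2-DM, the editor of peptides on MHC class II. The study's authors propose instead that H2-O cooperates with H2-DM in the choice of peptides. The study's methods trace the wild-type mice (WT) to a supplier's C57BL/6J stock and the knock-out mice (KO) to a line described earlier, both bred in house, and nowhere call them littermates. Loss of H2-O, the chromosome 17 around the knock-out allele and the colony therefore cannot be told apart in any KO to WT difference below.

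Glo1 encodes glyoxalase 1, which with glutathione clears methylglyoxal, a reactive by-product of the triose phosphates of glycolysis. Dnah8 encodes a heavy chain of axonemal dynein, a motor known from cilia and the sperm tail. Btbd9 encodes a BTB domain protein that serves as an adaptor of Cul3 ubiquitin ligases, and 1700097N02Rik is a long noncoding RNA annotated as sharing a bidirectional promoter with a coding gene. A segment that holds Glo1 is duplicated in some inbred mouse strains and single in others.

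In the GENCODE annotation of GRCm38 the genes fill 661.842 kb of chromosome 17, from 30215524 to 30877365. Btbd9 (ENSMUSG00000062202) covers 30215524 to 30576488 on the minus strand, and Glo1 (ENSMUSG00000024026) follows on the same strand after 8.448 kb, at 30584936 to 30626871. 1700097N02Rik (ENSMUSG00000099474) covers 30622441 to 30626905, again on the minus strand. Dnah8 (ENSMUSG00000033826) covers 30624354 to 30877365 on the plus strand, so that it overlaps Glo1 and the noncoding RNA on the opposite strand. The first exon of 1700097N02Rik also holds the start of 2 of the 10 annotated Glo1 transcripts, with 90 and 28 bases of shared exon on the same strand, and a read from there cannot be assigned to either gene. Whether the counting used strand is not given in the sources used here.

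The promoter windows of RefSeq on GRCm38.p6 run from 250 bases before to 50 bases after a gene's start. They are shown because 3 of the genes had like KO to WT ratios and the windows of a pair of them overlap. Such a window was matched for 3 of the 4 genes, and Btbd9 is only named. In the Glo1 window (chr17:30612610-30612909, minus strand) capitals mark the letters CCAAT, and GGGCGG on either strand. In the windows of 1700097N02Rik (chr17:30626856-30627155, minus strand) and Dnah8 (chr17:30626686-30626985, plus strand) capitals mark the 130 bases that both windows hold, each read from the other strand. All run 5′ to 3′.
Glo1: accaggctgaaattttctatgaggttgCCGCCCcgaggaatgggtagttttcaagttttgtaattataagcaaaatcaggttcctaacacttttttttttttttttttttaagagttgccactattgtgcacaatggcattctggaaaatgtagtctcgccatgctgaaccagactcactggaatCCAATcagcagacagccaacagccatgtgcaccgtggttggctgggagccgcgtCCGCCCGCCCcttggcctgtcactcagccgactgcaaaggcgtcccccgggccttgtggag
1700097N02Rik: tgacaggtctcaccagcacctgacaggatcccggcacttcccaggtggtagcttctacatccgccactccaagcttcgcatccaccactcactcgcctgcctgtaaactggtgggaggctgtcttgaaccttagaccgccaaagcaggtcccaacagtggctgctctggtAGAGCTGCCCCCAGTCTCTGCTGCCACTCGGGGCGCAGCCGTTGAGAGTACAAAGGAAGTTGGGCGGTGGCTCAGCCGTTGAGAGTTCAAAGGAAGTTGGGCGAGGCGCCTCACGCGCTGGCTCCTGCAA
Dnah8: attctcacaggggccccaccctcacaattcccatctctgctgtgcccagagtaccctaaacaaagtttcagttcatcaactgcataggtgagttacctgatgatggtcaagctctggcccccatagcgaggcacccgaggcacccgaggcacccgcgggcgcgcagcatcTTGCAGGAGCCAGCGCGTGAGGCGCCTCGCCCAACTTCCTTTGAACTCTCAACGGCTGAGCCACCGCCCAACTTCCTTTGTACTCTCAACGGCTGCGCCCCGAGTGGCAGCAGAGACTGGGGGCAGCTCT
The Glo1 window held CCAAT 1 time and GGGCGG 3 times, 2 of them overlapping. The windows of Dnah8 and 1700097N02Rik each held GGGCGG 1 time, inside the bases they share. Of 32851 windows of the same length, 37.4% held CCAAT and 35.7% held GGGCGG on either strand. The letters TATAAA, held by 13.6% of windows, and TGACNNNGC, held by 12.4%, were in none of the 3.

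A cell was kept with 200 genes or more, 12000 UMIs or fewer and no more than 5% mitochondrial UMIs, a UMI being the tag of 1 captured RNA molecule. T cells were then gated on a UMI of a CD3 or T cell receptor constant gene and on 0 UMIs of 7 genes of B cells and macrophages. This left 3629 to 7470 cells and 17786871 to 36155370 UMIs per KO library, and 2093 to 4232 cells and 7303495 to 21074017 UMIs per WT library. Levels are CPM, a gene's UMIs per 1000000 UMIs of the same library in the same set of cells, and triplets of values follow the replicate numbers. Cd4 stood at 233 to 325 CPM, Cd8b1 at 14.95 to 18.8 CPM, and Cd8a and the NK cell genes Klrb1c and Ncr1 no higher than 1.73 CPM. Each of the 15 pairs of libraries shared 10 to 65 barcodes. Cells with under 10% of their UMIs from ribosomal protein genes (low-ribosomal cells, the rest being high-ribosomal cells) made up 3.15%, 7.61% and 16.03% of KO and 41.9%, 18.7% and 44.2% of WT T cells, and results are therefore also given within one kind of cell. Low-ribosomal cells were shallow, with library medians of 1445.5 to 1790 UMIs and 3.16% to 3.78% mitochondrial UMIs. For high-ribosomal cells the medians were 4162 to 5640 UMIs and 1.76% to 2.10%. Whether the kinds differ in cell state or in RNA quality was not tested.

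H2-Oa, the alpha chain of the deleted molecule, was lower in each KO library over all gated T cells, but not in naive cells. In all T cells it stood at 4.34, 2.98 and 3.49 CPM in KO and 5.07, 5.36 and 6.16 CPM in WT. In the few cells with B cell genes, 17 to 36 per KO library and 4 to 13 per WT library, it stood at 21.2, 57.7 and 27.3 CPM and 347, 223 and 372 CPM. In naive cells it stood at 4.16, 3.90 and 3.38 CPM in KO and 3.66, 4.43 and 3.17 CPM in WT, which overlapped, and in Foxp3+ cells at 1.91, 0.530 and 1.65 CPM and 13.3, 15.04 and 20.7 CPM, which did not. The fitted log2 difference of H2-Oa in T cells was -0.54 (SE 0.19, edgeR adjusted p = 0.053) over all cells and -0.76 (SE 0.19, edgeR adjusted p = 0.047) in high-ribosomal cells, and H2-Ob, the beta chain, rose by 0.54 (SE 0.10, edgeR adjusted p = 0.0050).

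Glo1 was about 3-fold higher in KO CD4 T cells, with little spread between mice. It stood at 165, 159 and 163 CPM in KO and 54.9, 57.4 and 48.5 CPM in WT. The means were 162 ± 3.12 CPM (SD, n = 3 mice) and 53.6 ± 4.56 CPM (SD, n = 3 mice), from 12392 and 2311 UMIs. Their ratio was 3.03, and any KO library against any WT library gave 2.77 to 3.40. Of the 12226 genes tested, 46.8% did not overlap between genotypes and 18.7% lay higher in every KO library, and the fitted fold change of Glo1 ranked 27 from the top.

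Over all gated T cells the noncoding RNA 1700097N02Rik was higher by nearly the same ratio, though not within each gate, as given below. Its levels were 65.2, 46.6 and 45.3 CPM in KO and 16.98, 18.9 and 15.9 CPM in WT, a ratio of 3.04. KO replicate 1 lay well above the other KO libraries, and the genotypes did not overlap. Counted against Glo1 in the same library, which needs no scaling between libraries, there were 39.5, 29.3 and 27.8 UMIs of it per 100 Glo1 UMIs in KO and 30.9, 32.9 and 32.7 in WT. The means, 32.2 ± 6.37 and 32.2 ± 1.09 (SD, n = 3 each), differed by less than the spread between libraries.

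Dnah8, on the opposite strand, stood at 179, 162 and 206 CPM in KO and 81.1, 65.3 and 81.3 CPM in WT. Its ratio was 2.40 with no overlap. Of its 22 annotated transcripts, 6 start within 100 bases beyond the last coordinate of 1700097N02Rik. Which start these T cells used was not measured. Btbd9, which lies next to Glo1 on its far side, was the exception over all gated T cells. Its levels of 38.6, 42.1 and 45.8 CPM in KO and 42.0, 32.5 and 51.7 CPM in WT overlapped, with a ratio of 1.002. The log2 fold changes fitted by edgeR, KO against WT, with their standard errors (SE), were 1.66 (SE 0.09) for Glo1, 1.66 (SE 0.16) for 1700097N02Rik, 1.34 (SE 0.10) for Dnah8 and 0.08 (SE 0.13) for Btbd9, beside a median of 0.01 over all genes tested.

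Dnah8 and Btbd9 gave other ratios once cells of one kind were compared. In high-ribosomal T cells Dnah8 stood at 175, 153 and 174 CPM in KO and 59.9, 55.3 and 48.9 CPM in WT, a ratio of 3.06. Btbd9 there stood at 37.4, 37.5 and 38.7 CPM and 25.9, 25.4 and 29.0 CPM, a ratio of 1.41 with no overlap. All 4 genes thus lay higher in every KO library in these cells, where 33.1% of genes did not overlap and 17% lay higher in every KO library. The ratios of Glo1 and 1700097N02Rik were 2.80 and 2.75. The log2 fold changes were 1.48 (SE 0.06) for Glo1, 1.46 (SE 0.13) for 1700097N02Rik, 1.61 (SE 0.08) for Dnah8 and 0.49 (SE 0.07) for Btbd9. Per 100 Glo1 UMIs of the same library there were 101 ± 5.46 Dnah8 UMIs in KO and 92.8 ± 4.13 in WT (SD, n = 3 each), which overlapped. For Btbd9 there were 22.9 ± 0.36 and 45.7 ± 6.13 (SD, n = 3 each), which did not.

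Low-ribosomal T cells, a set chosen after seeing the data, held quite different levels and again higher ones in KO. Dnah8 stood at 542, 451 and 605 CPM in KO and 176, 201 and 187 CPM in WT, a ratio of 2.83. Glo1 stood at 109, 82.8 and 99.9 CPM and 24.8, 20.6 and 27.6 CPM, a ratio of 3.99. Btbd9 stood at 144, 186 and 135 CPM and 114, 129 and 126 CPM, a ratio of 1.26, and did not overlap. The noncoding RNA was thinly counted, with 35 UMIs in KO and 38 UMIs in WT. Among the 9118 genes tested in these cells 31.2% did not overlap and 23.2% lay higher in every KO library. In CPM Btbd9 therefore lay higher in KO within each kind of cell, by less than the other genes. It overlapped where the kinds were summed. Its fitted fold change ranked 3252 of 9118 from the largest rise in low-ribosomal cells, and 485 of 11982 in high-ribosomal cells. Among cells of 2000 UMIs or more Btbd9 overlapped in low-ribosomal cells, with a ratio of 1.15. It did not in high-ribosomal cells, with a ratio of 1.42. Among these deeper cells, low-ribosomal cells held 176 Btbd9 UMIs in KO and 289 in WT, against 2713 and 945 in high-ribosomal cells. The rise of Btbd9 thus rests on fewer UMIs in low-ribosomal cells. The test of whether its ratio differs between the kinds of cell, given below, did not call it.

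**Figure D1:**
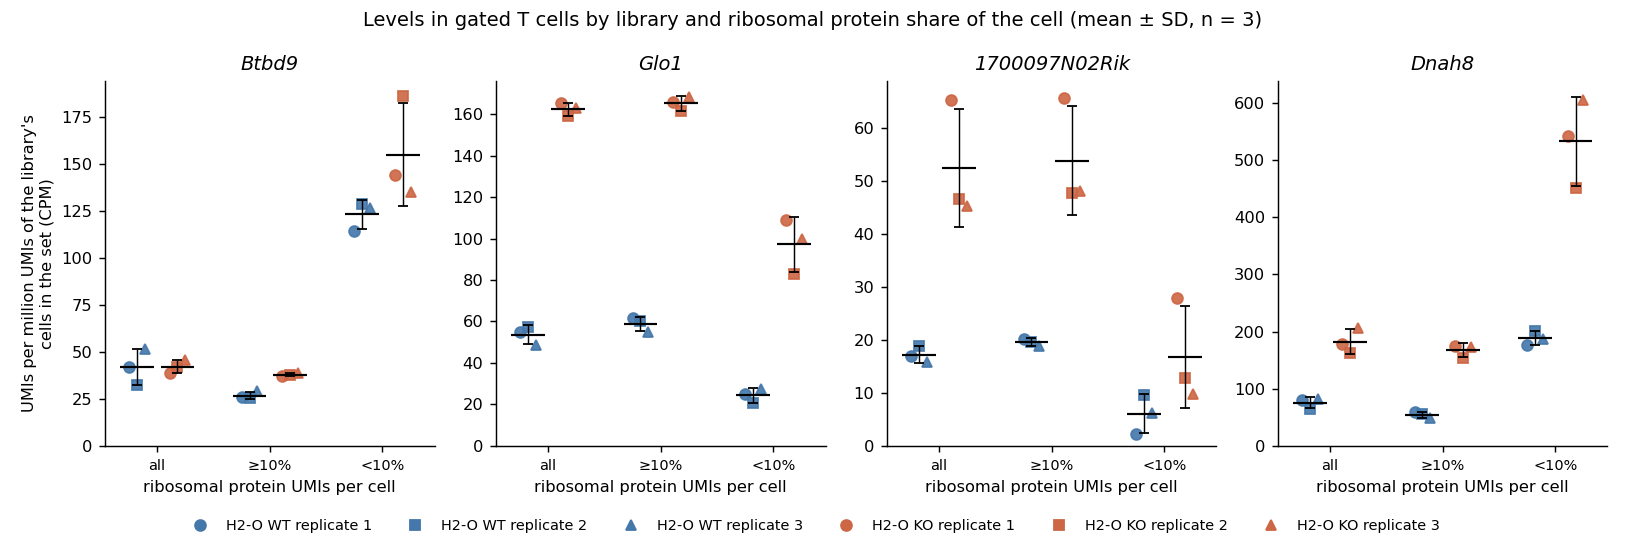
Levels of the 4 genes in gated T cells of each library, in CPM on the vertical axis with its own scale per gene, for all cells, high-ribosomal cells and low-ribosomal cells. Points are libraries, horizontal lines are means and bars are SD (n = 3 mice); KO points lie above WT points everywhere except for Btbd9 over all cells, where the means are 42.2 and 42.1 CPM.

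The choice of the genes did not use the contrast of low-ribosomal with high-ribosomal cells inside each mouse, so this one was tested. Btbd9 and Dnah8 were higher in low-ribosomal cells and Glo1 and 1700097N02Rik lower, each in all 6 libraries. The same cells held fewer UMIs and a greater mitochondrial share, as given above, and whether RNA quality had a part was not tested. Btbd9 rose by a log2 fold change of 1.40 (SE 0.09, edgeR adjusted p = 1.21e-11) and Dnah8 by 1.02 (SE 0.09, edgeR adjusted p = 2.70e-09). Glo1 fell by 1.68 on the log2 scale (SE 0.10, edgeR adjusted p = 9.24e-12), and 1700097N02Rik fell by 2.46 on the log2 scale (SE 0.17, edgeR adjusted p = 3.56e-11). The test was edgeR's quasi-likelihood F-test with the mouse as a block, p-values were adjusted by Benjamini-Hochberg over 11578 genes, a gene counted as called at an adjusted p under 0.05, and it called 70.5% of them, 35.5% higher and 35% lower. The gene bodies of Btbd9 and Dnah8 measure 360.965 and 253.012 kb, those of Glo1 and 1700097N02Rik 41.936 and 4.465 kb, and whether reads in introns were counted is not given in the sources used here.

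Whether the KO to WT ratio differed between these kinds of cell was tested as an interaction, which called none of the 4 genes and 3.32% of all genes. The log2 difference of the ratio, low-ribosomal less high-ribosomal cells, was 0.30 (SE 0.19, edgeR adjusted p = 0.46) for Glo1 and -0.28 (SE 0.14, edgeR adjusted p = 0.31) for Dnah8. It was -0.36 (SE 0.14, edgeR adjusted p = 0.18) for Btbd9 and -0.41 (SE 0.38, edgeR adjusted p = 0.65) for 1700097N02Rik. Without adjustment the p of Btbd9 was 0.017 and those of the other genes lay between 0.054 and 0.28, and DESeq2 called none of them either, giving no adjusted p for 1700097N02Rik.

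The T cells were next divided by genes other than these 4. The naive gate held cells with a UMI of at least 1 of 2 naive T cell markers, among them Ccr7, and 0 UMIs of Foxp3 and 6 effector genes, the effector gate held cells without Foxp3 that had 2 or more of Cd44, S100a4, Ccl5, Nkg7, Cxcr3 and Itgb1, and the Foxp3+ gate held cells with a UMI of Foxp3, the factor of regulatory T cells. Il2ra, Ctla4 and Ikzf2, further markers of regulatory T cells, were higher in the Foxp3+ than in the naive gate of every library. Glo1 was higher in KO in each gate. Naive cells held 168, 154 and 162 CPM in KO and 57.5, 57.2 and 44.9 CPM in WT, a ratio of 3.03. Effector cells held 175, 186 and 176 CPM and 58.3, 64.9 and 58.7 CPM, a ratio of 2.95. Foxp3+ cells held 156, 150.5 and 156 CPM and 59.96, 52.0 and 52.2 CPM, a ratio of 2.82. None of the gates overlapped for Glo1, as for 17.8%, 12.2% and 8.6% of the genes tested in them that lay higher in every KO library.

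Dnah8 stood at 183, 173 and 211 CPM in KO and 77.1, 63.5 and 77.5 CPM in WT naive cells, a ratio of 2.60. In effector cells the values were 154, 121 and 169 CPM and 80.5, 67.5 and 64.0 CPM, a ratio of 2.09, and in Foxp3+ cells 156, 135 and 168 CPM and 68.3, 62.7 and 69.6 CPM, a ratio of 2.29. No gate overlapped for Dnah8 either. 1700097N02Rik had ratios of 3.52 in naive and 2.04 in effector cells. In Foxp3+ cells it stood at 46.7, 38.2 and 22.7 CPM in KO and 21.7, 12.53 and 10.8 CPM in WT. KO replicate 3 there lay just above WT replicate 1. The mean in Foxp3+ cells was 35.9 CPM in KO and 14.99 CPM in WT, beside 52.8 and 15.01 CPM in naive cells. In high-ribosomal Foxp3+ cells, where 7.1% of genes lay higher in every KO library, its genotypes overlapped. Btbd9 overlapped in all 3 gates, with ratios of 1.02, 1.22 and 1.27 in the order naive, effector and Foxp3+. In high-ribosomal cells its ratios were 1.47, 1.31 and 1.59, with overlap in effector cells alone, beside 16.9% of genes in naive and 10.9% in effector cells that lay higher in every KO library.

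**Figure D2:**
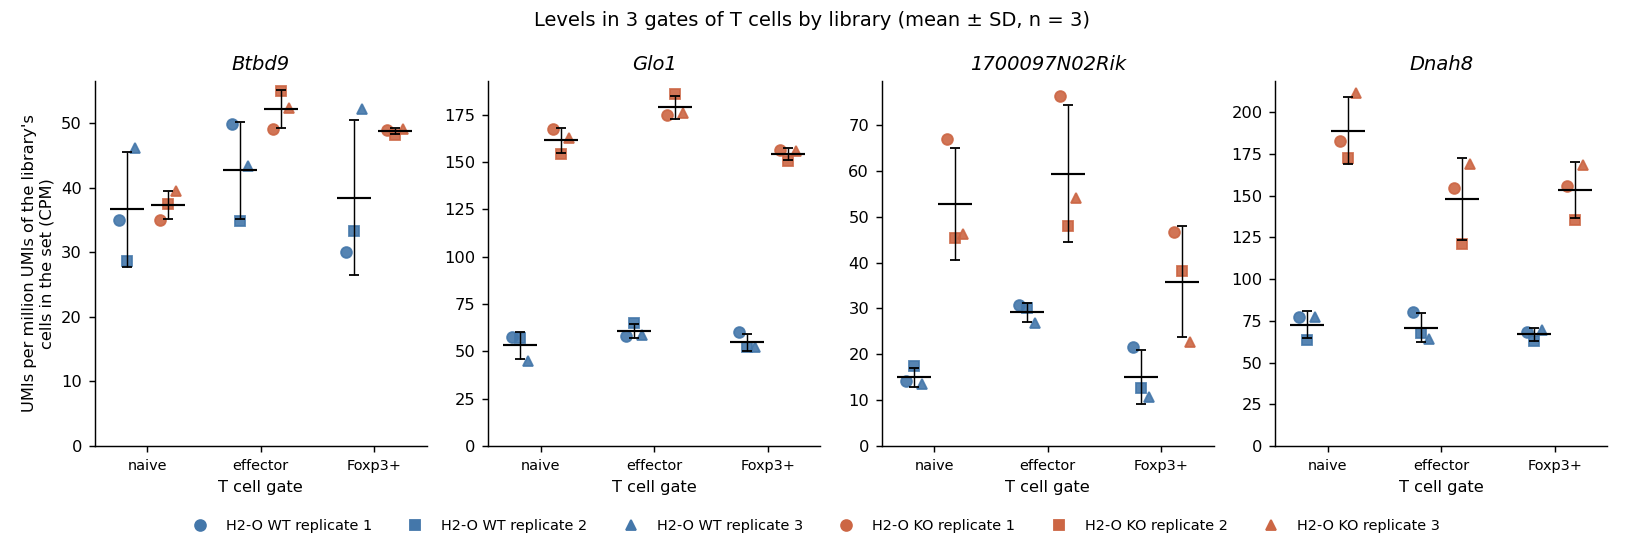
Levels of the 4 genes in the naive, effector and Foxp3+ gates of each library, in CPM on the vertical axis with its own scale per gene. Points are libraries, horizontal lines are means and bars are SD (n = 3 mice); over the 3 gates Glo1 lies between 150.5 and 186 CPM in KO and between 44.9 and 64.9 CPM in WT.

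Between gates of the same mice, which the choice of the genes did not use either, 3 of the 4 were called lower in Foxp3+ than in naive cells. 1700097N02Rik fell by 0.71 on the log2 scale (SE 0.11, edgeR adjusted p = 7.68e-06), and Dnah8 fell by 0.44 on the log2 scale (SE 0.06, edgeR adjusted p = 1.66e-06). Glo1 fell by 0.24 on the log2 scale (SE 0.06, edgeR adjusted p = 0.0022). In CPM Dnah8 was lower in 6 of 6 libraries, 1700097N02Rik in 5 and Glo1 in 4, with 3 of the 4 in KO. For 1700097N02Rik the mean CPM was 52.8 in naive and 35.9 in Foxp3+ cells of KO, but 15.01 and 14.99 in WT. Its lower mean in Foxp3+ cells was thus seen in KO and hardly at all in WT. The mean CPM of Glo1 was 161 in naive and 154 in Foxp3+ cells of KO, and 53.2 and 54.7 in WT. For Glo1 the fit with its scaling and the mean CPM therefore differ in sign in WT. Btbd9 had a log2 fold change of 0.10 (SE 0.08, edgeR adjusted p = 0.33). Among 10774 genes the test called 44.9%, 22.2% higher and 22.7% lower in Foxp3+ cells.

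In effector against naive cells Dnah8 was the only one of the 4 called. It fell by 0.46 on the log2 scale (SE 0.07, edgeR adjusted p = 1.54e-06), and its CPM was lower in 4 of 6 libraries, 3 of them KO. In high-ribosomal cells its CPM was lower in the 3 KO libraries and higher in the 3 WT libraries. Glo1 and 1700097N02Rik had log2 fold changes of -0.05 (SE 0.06, edgeR adjusted p = 0.52) and 0.15 (SE 0.10, edgeR adjusted p = 0.22), while the CPM of both was higher in effector cells in 6 of 6 libraries, so that for Glo1 the fit with its scaling and the CPM differ in sign. Btbd9 had 0.15 (SE 0.08, edgeR adjusted p = 0.11) over all cells and was called in high-ribosomal cells, at 0.31 (SE 0.08, edgeR adjusted p = 0.0014), higher in 6 of 6 libraries. The test called 51.2% of 10900 genes, 25.2% higher and 26.1% lower, and 50.6% in high-ribosomal cells. Low-ribosomal cells made up 2.90% to 42.1% of the naive gate, 3.69% to 20.3% of the effector gate and 2.74% to 31.5% of the Foxp3+ gate.

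The interaction of genotype and gate, which asks whether the KO to WT ratio differed between gates, called none of the 4. For effector against naive cells, where 0.0275% of genes were called, the log2 difference was -0.84 (SE 0.17, edgeR adjusted p = 0.069) for 1700097N02Rik and -0.37 (SE 0.12, edgeR adjusted p = 0.32) for Dnah8. In high-ribosomal cells that of Dnah8 was -0.60 (SE 0.12, edgeR adjusted p = 0.097). Glo1 and Btbd9 had -0.18 (SE 0.13, edgeR adjusted p = 0.75) and 0.22 (SE 0.15, edgeR adjusted p = 0.75). For Foxp3+ against naive cells, where 0.00928% of genes were called, it was -0.15 (SE 0.14) for Glo1, -0.26 (SE 0.13) for Dnah8, -0.46 (SE 0.29) for 1700097N02Rik and 0.21 (SE 0.17) for Btbd9, each with an adjusted p of 0.95 from edgeR. Without adjustment p was 3.15e-05 for 1700097N02Rik and 0.0056 for Dnah8 in effector against naive cells, and 0.061 or more for the genes in Foxp3+ against naive cells.

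The share of cells in which a gene was found comes from the same UMIs as the ratio that chose the genes, and is again a description. Each T cell was thinned at random to 1500 UMIs, which left out 1023 shallower cells of KO and 1639 of WT. A Glo1 UMI was then found in 22.0%, 20.5% and 21.5% of KO cells and 7.65%, 7.16% and 6.44% of WT cells, and 2 or more were found in 2.58% and 0.46% on average. Dnah8 was found in 22.2%, 21.9% and 25.2% of KO cells and 11.1%, 10.2% and 12.4% of WT cells. 1700097N02Rik was found in 9.23%, 6.36% and 6.62% and 2.09%, 2.74% and 2.27%. For Btbd9 the shares of 5.72%, 7.05% and 6.76% in KO and 7.39%, 5.91% and 9.47% in WT overlapped. At 3000 UMIs per cell they did not, at 10.4% ± 0.812 and 7.71% ± 1.19 (SD, n = 3 each). That depth left out 3289 cells of KO and 4385 of WT. It kept 13445 high-ribosomal and 90 low-ribosomal cells of KO, and 6073 and 87 of WT. The shares at that depth are therefore almost wholly those of high-ribosomal cells. Without thinning Glo1 was found in 48.3% ± 5.22 of KO and 17.7% ± 4.88 of WT cells (SD, n = 3 each). No cell type known to lack these genes was at hand, so the share that free RNA gives was not measured.

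**Figure D3:**
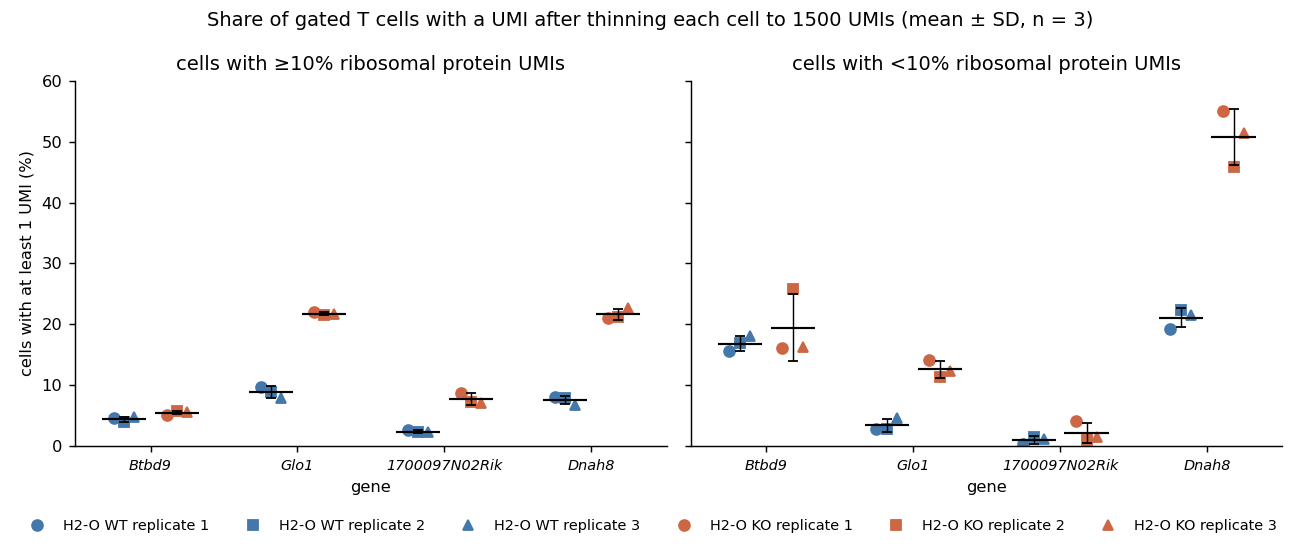
Share of T cells with 1 or more UMIs of each gene after thinning to 1500 UMIs per cell, in percent on the vertical axis, for high-ribosomal (left) and low-ribosomal (right) cells. Points are libraries, horizontal lines are means and bars are SD (n = 3 mice); on the left Glo1 lies at 21.5% to 22.0% in KO and 7.85% to 9.73% in WT, and on the right Dnah8 lies at 45.9% to 55.0% and 19.3% to 22.4%.

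In the same thinned cells a Glo1 UMI was about as frequent with a Dnah8 UMI as without one in KO, at 22.5%, 20.4% and 21.0% against 21.8%, 20.5% and 21.6%. In WT the shares were 4.14%, 4.95% and 6.43% against 8.09%, 7.41% and 6.45%. In high-ribosomal WT cells they were 4.44%, 9.26% and 7.80% against 10.2%, 8.90% and 7.85%. These shares describe sparse counts, in WT of 7 to 27 cells per library with both over all T cells and of 4 to 25 in high-ribosomal cells.

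Few other cells were in the sort. In cells with 2 or more of 3 B cell genes Glo1 stood at 91.8, 144 and 123 CPM in KO and 69.4, 34.3 and 33.8 CPM in WT, from 42 and 5 UMIs. In cells with 2 or more of the C1q genes, which mark macrophages, it stood at 125, 211 and 155 CPM and 104, 15.1 and 62.3 CPM, from 56 and 8 UMIs. Dnah8 had 24 UMIs in KO and 4 UMIs in WT B cells, and 51 and 6 UMIs in macrophages. The KO libraries lay above the WT libraries for both genes in both kinds of cell, with sums too small for a test, and Btbd9 and 1700097N02Rik overlapped. What share of all genes lay so in these cells was not counted.

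Beyond Btbd9, on the side away from Dnah8, the 5 nearest tested genes were not called higher. Zfand3, a zinc finger gene 4.696 kb from Btbd9, had a log2 fold change of -0.17 (SE 0.07, edgeR adjusted p = 0.10). The next tested genes on that side lie 498.48 kb away and farther. Ccdc167 and Tbc1d22b were not called, at -0.05 and -0.17. Cmtr1, an RNA cap methyltransferase, was called at -0.24 (SE 0.07, edgeR adjusted p = 0.022), and Rnf8, a ubiquitin ligase of the DNA damage response, at -0.30 (SE 0.10, edgeR adjusted p = 0.0493); neither was called in high-ribosomal cells, nor was Rnf8 by DESeq2. Leaving out any single library except WT replicate 2 ended the call of Rnf8, and leaving out KO replicate 1 or 2 or WT replicate 1 or 3 ended that of Cmtr1. Within 2 Mb before the 4 genes 2 of 30 tested genes were called higher and 4 lower, with a median of -0.07, and within 2 Mb after them 4 of 29 were called higher and 4 lower, with a median of -0.06. Over all genes 32.3% were called, 14.4% higher and 17.8% lower.

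On the Dnah8 side a pair of scarce transcripts were all but absent in WT. Gm10503, an antisense transcript 42.973 kb after Dnah8, had 66, 36 and 47 UMIs in KO and 0, 1 and 0 UMIs in WT (adjusted p = 0.00066 from edgeR). Pooled over the libraries of a genotype, the ratio of its CPM was 84.0, with an exact 95% interval of 14.8 to 3339 that covers counting error only. Tff3, a secreted trefoil peptide gene 247.941 kb after Dnah8, had 42, 16 and 31 UMIs in KO and 0 UMIs in each WT library, which is at least 16.7-fold higher against a floor of 3 UMIs over the WT group (adjusted p = 0.00195 from edgeR). Their fitted log2 fold changes, drawn in the plot along chromosome 17, depend on the prior count and are no bounds. Abcg1, a cholesterol exporter that lies between them, was called lower at -0.29 (SE 0.08, edgeR adjusted p = 0.019), but not in high-ribosomal cells, at -0.10, nor without KO replicate 1 or 3 or WT replicate 1 or 2. Ubash3a, a regulator of T cell receptor signalling, and Gm50218 were not called, at -0.15 and -0.83. The remaining genes with the largest called changes within 2 Mb were Cpne5, a copine, at 2.20 (SE 0.43, edgeR adjusted p = 0.0053) from 72 and 9 UMIs, Kctd20 at -0.28, which was not called in high-ribosomal cells at -0.18, and Zfp871 at -0.46.

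Between the ends of the 4 genes, 2 further genes were tested, both annotated as antisense. Gm50240, which overlaps the first bases of Btbd9, rose by 0.85 (SE 0.13, edgeR adjusted p = 0.0025), with 360, 159 and 218 UMIs in KO and 39, 107 and 91 UMIs in WT. Gm9937, opposite the end of Dnah8, rose by 2.31 (SE 0.54, edgeR adjusted p = 0.010), with 65, 36 and 23 UMIs and 0, 11 and 4 UMIs. Their reads and those of their partners cannot be told apart if strand was not used. Gm50250 and Gm41561 were too scarce to test, with 4 and 11 UMIs over all libraries, and the 11 UMIs of Gm41561, antisense within Dnah8, were all in KO.

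**Figure D4:**
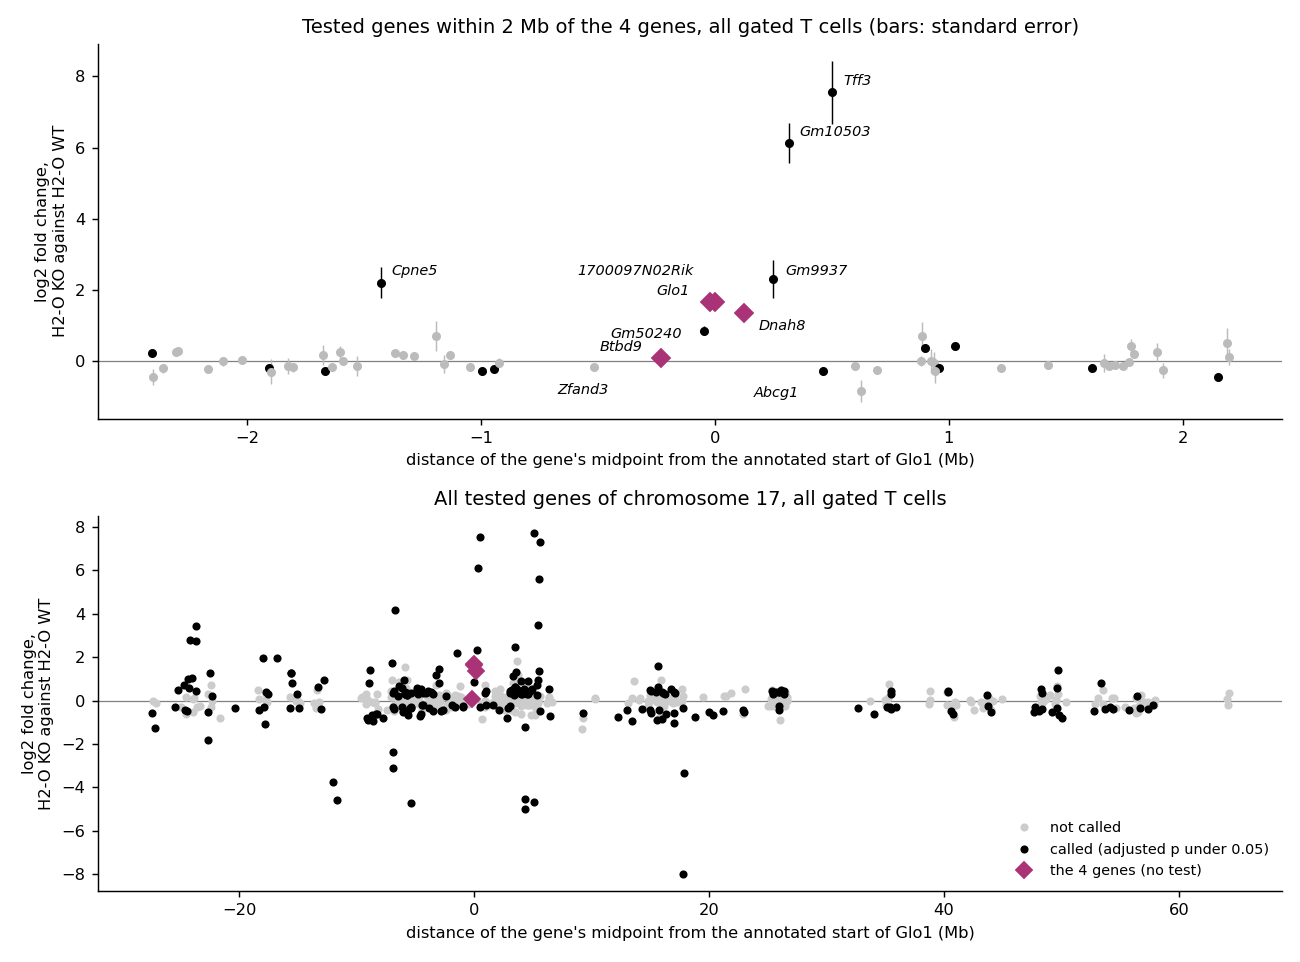
Log2 fold change of KO against WT in all gated T cells for each tested gene on chromosome 17, against the distance of the gene's midpoint from the annotated start of Glo1 in Mb (negative: before it). The upper panel shows genes within 2 Mb of the 4 genes, with standard errors as bars, and Glo1 at 1.66 and Dnah8 at 1.34 stand above most of them; the lower panel shows the whole chromosome, on which 46 of 652 tested genes were called with more than a 2-fold change.

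Large changes made up a greater share of the tested genes on chromosome 17 than elsewhere, which is a description of these counts with no test. Among its 652 tested genes 46 (7.06%) were called with more than a 2-fold change in either direction, against 130 of 11574 (1.12%) on other chromosomes. In high-ribosomal cells it was 41 of 643 (6.38%) against 21 of 11339 (0.185%). These genes, Glo1, Dnah8 and 1700097N02Rik among them, ran from -27.2 to 49.7 Mb of the Glo1 start. H2-Oa starts 3.21 Mb after the end of Dnah8.

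Over the 18 sums of 6 libraries and 3 gates, the genes whose log2 CPM was most like that of Glo1 by Pearson's r were Gm20478 (0.96), Gm49719 (0.95) and Ndufs7 (0.94), which encodes a subunit of respiratory complex I. Those most like Dnah8 were the MHC class I gene H2-T22 (0.94) and the genes of the RNA-binding proteins Lsm7 (0.92) and Lsm4 (0.91). Gm20478, Gm49719 and H2-T22 lie on chromosome 17. Glo1 itself had an r of 0.94 with Dnah8, 0.86 with 1700097N02Rik and 0.46 with Btbd9. The sums share libraries and genotypes and are not independent. Genotype was not removed from them, so every r takes in the KO to WT difference by which the genes were chosen. These values therefore cannot show whether genes vary alike apart from genotype.

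The genes of enzymes around glyoxalase 1 had smaller fold changes than Glo1, which says little, since Glo1 was chosen by its ratio. Of 14 genes listed for glyoxalases and the handling of methylglyoxal, 11 were tested and 8 were called higher in KO, where 14.4% of all genes were, with a median log2 fold change of 0.34. Hagh, which encodes glyoxalase 2, the enzyme after Glo1, rose by 0.35 (SE 0.08, edgeR adjusted p = 0.011). Haghl, its relative, rose by 0.57 (SE 0.11, edgeR adjusted p = 0.0058), and Park7, whose protein DJ-1 has been described as a glyoxalase without glutathione, by 0.44 (SE 0.08, edgeR adjusted p = 0.0034). The glyoxalase domain gene Glod4, the aldo-keto reductase genes Akr1a1, Akr1b3 and Akr7a5, and Ddost, a gene of the oligosaccharyltransferase, rose by 0.27 to 0.42. In high-ribosomal cells, where 8.06% of genes were called, 2.17% higher and 5.89% lower, 2 of the 11 were called, Haghl at 0.53 and Park7 at 0.23, and the median was 0.15. Over all T cells without KO replicate 1, 3 of the 8 calls were left, those of Haghl, Park7 and Ddost.

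Of 5 genes of glutathione supply, Gclm, the modifier subunit of glutamate-cysteine ligase, was called at 0.30 (SE 0.08, edgeR adjusted p = 0.020), but not without KO replicate 2, while Gclc, Gss, Gsr and Slc7a11 were not called, and the median was 0.26. All 4 listed genes of glycolysis around the triose phosphates were called higher, as were 14.4% of all genes, Gapdh at 0.56, Tpi1 at 0.45, Aldoa at 0.42 and Gpi1, of an earlier step, at 0.37. In high-ribosomal cells Gclm was not called, at 0.20, and of the 4 glycolysis genes Gapdh alone was, at 0.33.

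Other axonemal dynein genes were scarce, and 4 of the tested genes of cytoplasmic dynein were called, 2 in each direction, beside 32.3% of all genes called. Of 18 listed axonemal dynein genes, Dnah7a, Dnah11 and Dnah17 were tested, none with a mean above 2.43 CPM in either genotype, and none was called. Of 9 listed genes of cytoplasmic dynein, the motor of transport along microtubules, 8 were tested. The light chain genes Dynlrb1 (0.34) and Dynll1 (0.27) were called higher, and Dync1h1 (-0.38), the heavy chain, and Dync1li2 (-0.53) lower, the latter pair also in high-ribosomal cells. Dynll1 was called only with all 6 libraries or without WT replicate 2. Of 17 listed genes for Cul3 and its BTB adaptors, the kind of ligase that Btbd9 serves, 16 were tested. Rbx1 (0.30), Btbd6 (0.33) and Btbd2 (0.29) were called higher, Cul3 (-0.29), Btbd7 (-0.52) and Ibtk (-0.19) lower, and the median was -0.03. These 6 of 16 stand beside 14.4% of all genes called higher and 17.8% lower. DESeq2 did not call Btbd2 and Ibtk, and without KO replicate 1 Rbx1 and Btbd7 alone were left. In high-ribosomal cells Btbd7 was the one of the 16 called, at -0.27. The share of low-ribosomal cells differed between genotypes, as given above, and its part in these list results was not tested beyond the comparison within high-ribosomal cells.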

How the data were processed

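Single CD4 T cells from the spleens of 6 mice were captured with the 10x Genomics 5' kit, and the deposited files hold counts of UMIs per gene and barcode, which the authors made with Cell Ranger 6.1.2 on mm10, as the submitters' processing notes name them. Barcodes were filtered by the limits of the study's methods, no doublet caller was run beyond those limits, and gates were set on marker genes. The other marker of the naive gate is not reported here. UMIs were summed per library and gate. Sums were compared with edgeR 4.0.16 in R 4.3.3 (filterByExpr, TMM, quasi-likelihood F-test, Benjamini-Hochberg over all genes tested), with the library as a block where 1 mouse gave 2 sums. Gates and thinning used Python 3.11.15. On simulated counts with 2-fold changes, the genotype fit recovered 79.5% of the 195 changed genes it tested, with 6 false calls. The fits between gates and between kinds of cell recovered 83.0% to 94.3%, with 2 to 6 false calls. The simulated libraries had no mouse effect and did not differ in low-ribosomal cells, so they cannot show how the fits fare under these.

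The 4 genes and all lists were chosen with earlier results of these data known. Genes named besides them were H2-Oa and H2-Ob, the 5 nearest tested genes and the 3 largest calls within 2 Mb on each side, called genes of the lists, and the 3 genes most alike. Genes between the ends of the 4 were named after their values were seen. Alternatives were DESeq2 1.42.0, no low-count filter, the replicate block, single libraries left out, other limits on cells and other thinning. Low-ribosomal cells, cells above the mitochondrial limit, the block and the high-ribosomal cells within gates, and the alternatives of the ribosomal interaction were chosen after seeing the data. Counting intervals cover counting error only.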

Additional observations from a re-analysis of the deposited data

Results flagged for a closer look

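Cells above the mitochondrial limit entered none of the main comparisons, and they too held more Glo1 and Dnah8 in every KO library. With the same T cell gate there were 372, 271 and 1922 such cells in KO and 920, 539 and 1710 in WT. Glo1 stood at 90.9, 71.3 and 65.6 CPM in KO and 27.0, 31.5 and 28.9 CPM in WT, a ratio of 2.61. Dnah8 stood at 553, 504 and 698 CPM and 197, 197 and 148 CPM, a ratio of 3.24. Btbd9, at 144, 138 and 95.01 CPM and 100.1, 126 and 111 CPM, overlapped. The ratios are a description of cells that the main analysis left out. What share of all genes lay higher in every KO library was not counted in them.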

How the results depend on the processing

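The number of genes called in KO against WT T cells, 3945 of 12226, was 966 in high-ribosomal cells, 1312 in low-ribosomal cells, 2461 in cells of 2000 UMIs or more, and 36 in cells above the mitochondrial limit. Leaving out single libraries gave 2134 (without KO replicate 1) to 4878 (without WT replicate 2), and 2439 without WT replicate 1. The cause was not tested. The log2 difference of Glo1 lay at 1.59 to 1.78 without single libraries. It was 1.48 in high-ribosomal cells, 1.55 in cells of 2000 UMIs or more, 1.83 in low-ribosomal cells and 1.39 above the mitochondrial limit. Dnah8 moved to 1.61 in high-ribosomal cells and 1.78 above that limit, Btbd9 to 0.49 in high-ribosomal cells and 1700097N02Rik to 1.08 in low-ribosomal cells. In high-ribosomal cells the naive gate had 1491 calls, with Glo1 at 1.52, Dnah8 at 1.75 and Btbd9 at 0.53, the effector gate had 57 calls in place of 178, and the Foxp3+ gate had 20 in place of 90, with Glo1 at 1.43 and Btbd9 at 0.61.

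Btbd9 in effector against naive cells passed the threshold in high-ribosomal cells (0.31) and in cells of 2000 UMIs or more (0.30). It lay at 0.12 to 0.24 without single libraries, and passed without WT replicate 3. The tests of the 4 genes between gates and between kinds of cell otherwise kept their side of the threshold. The genotype by gate interaction for effector cells called 1 gene in high-ribosomal cells. The ribosomal interaction called 384 genes, 220 with DESeq2 and 108 (without KO replicate 2) to 349 without single libraries. Thinned to 3000 UMIs, KO less WT shares in percentage points were 23.2 for Glo1, 22.3 for Dnah8, 8.36 for 1700097N02Rik and 2.66 for Btbd9, and without thinning they were 30.7, 26.6, 12.6 and 2.31.

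Of the 34 further genes named as called in KO against WT, 20 stayed called without any single library, and from 2 (without WT replicate 2) to 13 (without KO replicate 1) were lost. The glyoxalase list then had 3 to 8 of its 8 calls, 3 of them without KO replicate 1, and the Cul3 list 1 to 3 higher and 1 to 3 lower. In low-ribosomal cells the sign turned for Cmtr1 (0.17), Dynlrb1 (-0.15), Ibtk (0.12), Btbd6 (-0.064) and Rbx1 (-0.18), and above the mitochondrial limit for Rnf8 (0.21), Abcg1 (0.030), Dync1h1 (0.14) and Ibtk (0.081).

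The labels number the mice 1 to 3 in both genotypes. Deviations of same-numbered libraries from their group means correlated at r = -0.10, 0.18 and 0.40 over 12226 genes. Differently numbered KO and WT libraries gave r of -0.43 to 0.40. With so few pairs these values cannot show whether same-numbered libraries shared a batch. With the number as a replicate block 4649 genes were called, 637 in the effector and 512 in the Foxp3+ gate, and Glo1 lay at 1.67, 1700097N02Rik at 1.62, Dnah8 at 1.33 and Btbd9 at 0.092. With 3 mice a genotype, and 4 to 13 B cells per WT library, small ratios between rare cells were not detectable.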
